A study of Mus musculus with 4 samples.

Results

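Tumour necrosis factor, its 2 receptors and the proteins that bind them were followed in the mouse amygdala across 4 groups: P2X7 receptor knockout mice given lipopolysaccharide (KO LPS), knockout mice given saline (KO saline), wild-type mice given lipopolysaccharide (WT LPS) and wild-type mice given saline (WT saline). The genes were Tnf and Tnfsf10 (ligands), Tnfrsf1a and Tnfrsf1b (receptors), Tradd, Traf1 and Traf2 (adaptors) and Ripk1 (a kinase). They were found by matching these symbols to the gene names in the array files, which gave 8 of 28632 names and 11 of 41174 probes, and all 11 probes passed the filter on dim spots. All mice were C57BL/6J males aged 10 weeks and were killed 6 h after an intraperitoneal injection. The LPS dose is stated as 7.5 µg per mouse in one place of the submitters' notes and as 250 µg/kg in another. LPS, a cell wall component of Gram-negative bacteria, is a standard means of raising a systemic inflammatory reaction. The knockouts are labelled P2X7R -/-; how the allele was made is not given in the sources used here. RNA of the whole amygdala was labelled with Cy3 and hybridised to Agilent 1-colour arrays, 4 per group. The notes speak of 4 mice and of independent experiments in each group but do not tie an array to a mouse, so p-values measure the spread between these arrays.

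TNF is an inflammatory cytokine made as a membrane protein and shed by the protease ADAM17; in the brain, microglia are its best known source. It binds TNFR1, encoded by Tnfrsf1a, which carries a death domain and recruits TRADD, TRAF2 and RIPK1 to a complex that activates NF-kB or, in other circumstances, cell death. TNFR2, encoded by Tnfrsf1b, has no death domain and binds TRAF2 directly. TRAF1 is an adaptor that pairs with TRAF2, and Tnfsf10 encodes TRAIL, a related ligand that triggers apoptosis through its own receptors. The P2X7 receptor is an ATP-gated cation channel of microglia and other immune cells, best known for driving release of interleukin 1 beta.

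Because the array reports Tnfrsf1b and Ripk1 through several probes that did not all behave alike, their sequences are shown with that of the single Tnf probe, 5′ to 3′, with G and C in capitals. The second Tnfrsf1b probe and the first Ripk1 probe are given whole (60 bases) and the others by their first 30 bases. Coordinates are those of the array files, on mouse build mm9.
Tnf A_51_P385099, chr17:35336795-35336854, minus strand: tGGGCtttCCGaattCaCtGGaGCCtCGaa
Tnfrsf1b A_52_P228621, chr4:144804304-144804363, minus strand: GCaattGCaCtGtGtGCtGGaCaGaattCC
Tnfrsf1b A_51_P278282, chr4:144812866-144813439, minus strand: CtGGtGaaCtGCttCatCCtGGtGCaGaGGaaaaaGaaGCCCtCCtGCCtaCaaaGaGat
Ripk1 A_51_P430952, chr13:34124490-34124549, plus strand: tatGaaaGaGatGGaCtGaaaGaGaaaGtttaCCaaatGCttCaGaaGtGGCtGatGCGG
Ripk1 A_52_P174775, chr13:34125152-34125211, plus strand: ttGaGCatCCaatGCtGtaCtGtCaCCtta
Ripk1 A_52_P452740, chr13:34126261-34126320, plus strand: aGaCaGaattaGaaaCtGCttCtaGtGGaG
The second Tnfrsf1b probe spans 574 bases of the genome with its 60 bases, so it crosses an intron. Exon and UTR annotation of build mm9 was not used here. Over their whole length, G and C made up 23 and 30 of the 60 bases of the Tnfrsf1b probes A_52_P228621 and A_51_P278282. They made up 25, 22 and 23 bases of the Ripk1 probes A_51_P430952, A_52_P174775 and A_52_P452740, and the median share over all probes was 40%.

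A level below is the log2 of a probe's processed intensity (background-subtracted by the scanner software) minus the 75th percentile of the same array, so that 0 is a fairly bright spot and negative values are dimmer. That percentile ran between 346 and 1165 intensity units, and 58.1% to 71.9% of probes were well above background on an array. Differences are log2 values with the standard error (SE) of a linear model over all 16 arrays (limma), and a gene was called where its p, adjusted by Benjamini-Hochberg over 19463 genes, was under 0.05. The WT arrays lay on slides 1 and 2 of scan session 1 and the KO arrays on slides 3 and 4 of session 2, so that genotype and slide cannot be told apart. WT saline replicates 1 and 2 stood apart from replicates 3 and 4 and were near the LPS arrays in many inflammatory genes. WT LPS replicates 1 and 4 were low in some of the same genes: Tnf read -7.68 and -6.83 there, against -4.84 and -4.42 on WT saline replicates 1 and 2. These 4 arrays therefore go against their treatment labels in such genes, and whether labels or samples were exchanged was not tested. WT saline replicates 1 and 2 also differed from replicates 3 and 4 in markers of regions and cell types. The choroid plexus mean was -3.75 and -3.20 against -1.10 and -0.79, and the hippocampus mean -0.63 and -0.75 against 0.58 and 0.63. The oligodendrocyte mean was 2.51 and 2.54 against 3.63 and 3.58, while the amygdala means overlapped. The part of tissue content in the split was not tested. Each value below that sets WT LPS against WT saline, and each difference between responses, rests on the labels as given. Values of the 8 genes and counts over gene lists that use WT saline are given with and without its replicates 1 and 2, whereas second probes, markers and single list genes are given on all arrays. Those 2 arrays were picked by their high levels in inflammatory genes. Leaving them out lowers WT saline and the spread in such genes, so a call gained in that fit is no support for a difference. The P2rx7 probe A_52_P393314 was lower in KO, by -1.65 ± 0.25 after LPS and by -1.51 ± 0.25 after saline (limma, adjusted p = 0.000107 and 0.000211, here over all kept probes); the second, A_51_P506733, differed by 0.06 ± 0.29 and 0.24 ± 0.29 (adjusted p = 0.875 and 0.510). Of 9 measured amygdala markers, 8 were well above background on all 4 arrays of each group.

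LPS against saline in knockout mice asked how the pathway responded without the receptor. Tnfsf10, Tnfrsf1b and Ripk1 rose, by 2.20 ± 0.41, 1.93 ± 0.37 and 1.71 ± 0.35 (limma, adjusted p = 0.00607, 0.00661 and 0.0107). That is 3 of 8 genes called, where 3.64% of all genes were called and 2.5% were called higher. Tnf and Tnfrsf1a had every KO LPS array above every KO saline array without being called, and Tradd, Traf1 and Traf2 overlapped between the groups. All KO LPS arrays lay above all KO saline arrays in 5 of the 8 genes, against 5.12% of all genes. These 5 include Tnf, which passed the filter on dim spots through KO LPS alone, so its separation is no support. Beside this, the mean of 6 perivascular macrophage markers was lower after LPS, at -3.07 to -2.61 in KO LPS and -1.95 to -1.63 in KO saline; its part in the result was not tested. The median difference of the 8 genes was 1.71 and that of all genes -0.09.

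Tnf, on chromosome 17, was dim. Its level was -4.29, -4.26, -4.04 and -4.40 in KO LPS and -6.22, -7.29, -5.62 and -5.77 in KO saline. All 4 KO LPS arrays were well above background and none of the KO saline arrays was, so the difference of 1.98 ± 0.83 (adjusted p = 0.280) has a lower side that is only a bound. The probe passed the filter on dim spots through KO LPS alone, the group where it is high, so a call for Tnf against KO LPS under any setting is no support for a difference. Set against the dimmest signal counted as above background on each KO saline array, Tnf was at least 1.60-fold higher in KO LPS. This bound is for the group mean of the processed intensity and leaves out the spread between arrays and the choice of background correction. Its spot means before background subtraction, 94.3, 74.5, 84.4 and 88.4 intensity units in KO LPS and 72.9, 59.6, 79.0 and 60.8 in KO saline, overlapped between the groups.

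Tnfsf10 (chr3:27234836-27234895, plus strand), the gene of TRAIL, had levels of -4.17, -4.02, -3.92 and -4.34 in KO LPS and -5.32, -7.46, -5.89 and -6.56 in KO saline. The groups did not overlap, and no KO saline array was well above background. On the same bound, with the same limits, it was at least 1.76-fold higher in KO LPS. The bound did not hold with another background correction, where the direction turned (below).

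Tnfrsf1a (chr6:125312376-125312435, plus strand), the gene of TNFR1, was bright on all arrays. It read 2.25, 2.40, 2.21 and 2.95 in KO LPS and 1.36, 0.66, 0.45 and 0.54 in KO saline. The groups did not overlap, and the difference was 1.70 ± 0.52 (adjusted p = 0.0992). Fitted on the 2 KO groups alone, Tnfrsf1a was called (adjusted p = 0.00368), and it was also called without WT saline replicates 1 and 2 in the shared model (adjusted p = 0.00323).

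Tnfrsf1b, the gene of TNFR2, gave 2 answers. Probe A_52_P228621, the brighter one and the one used for the gene, read -2.23, -1.51, -1.97 and -1.64 in KO LPS and -3.21, -3.91, -3.92 and -4.05 in KO saline. The intron-crossing probe A_51_P278282 read -3.36, -3.45, -3.21 and -3.20 in KO LPS and -3.08, -3.68, -3.23 and -3.33 in KO saline. The groups were apart on the first probe and overlapped on the second, whose difference was 0.02 ± 0.19 (adjusted p = 0.966).

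Ripk1, the kinase that acts as scaffold and death switch of the TNFR1 complex, was higher after LPS on each of its 3 probes, with no overlap between KO groups. Probe A_52_P174775, used for the gene, read -2.49, -2.12, -2.30 and -2.95 in KO LPS and -4.26, -4.45, -4.09 and -3.93 in KO saline. Probe A_51_P430952 differed by 0.73 ± 0.39 (adjusted p = 0.423). Probe A_52_P452740 was well above background only on the 4 KO LPS arrays and passed the filter on dim spots through them alone, so its values are a description: it was at least 1.67-fold higher there than in KO saline.

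The adaptors showed no such separation. Traf1 (chr2:34798882-34798941, minus strand) read -1.64, -1.51, -1.92 and -1.44 in KO LPS and, in KO saline, -0.90 on replicate 1 and -2.22 to -1.99 on the other 3, so that 1 KO saline array lay above all KO LPS arrays. The difference was 0.15 ± 0.27 (adjusted p = 0.827). Traf2 (chr2:25374523-25374582, minus strand) differed by -0.11 ± 0.19 and Tradd (chr8:107782475-107782531, minus strand) by -0.10 ± 0.24 (adjusted p = 0.819 and 0.869). The Traf2 spot of KO saline replicate 3 was flagged as an outlier by the scanner software and was left out, so its KO saline mean rests on 3 arrays.

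The KO response depended on how the background was removed. With normexp correction of the spot means, none of the 8 genes was called by limma, where 424 of all 19463 genes were. An unadjusted p under 0.05 was reached by 1 of the 8, and by 7733 of all genes. Tnfsf10 and Ripk1 turned to -0.55 and -0.14, and Tnfrsf1b stood at 0.14, while Tnfrsf1a stayed at 1.73 (adjusted p = 0.0585). Within slide 3, 5 genes were called and within slide 4 none (5 had an unadjusted p under 0.05). Because Tnf passed the filter on dim spots through KO LPS alone, a call for Tnf in these counts is no support for a difference. Of all 19463 genes, 882 were called within slide 3 and 178 within slide 4, where 932 had an unadjusted p under 0.05. The differences on slides 3 and 4 were 1.53 and 2.43 for Tnf, 2.18 and 2.21 for Tnfsf10 and 1.74 and 1.66 for Tnfrsf1a. They were 1.88 and 1.98 for Tnfrsf1b and 1.61 and 1.82 for Ripk1.

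**Figure D1:**
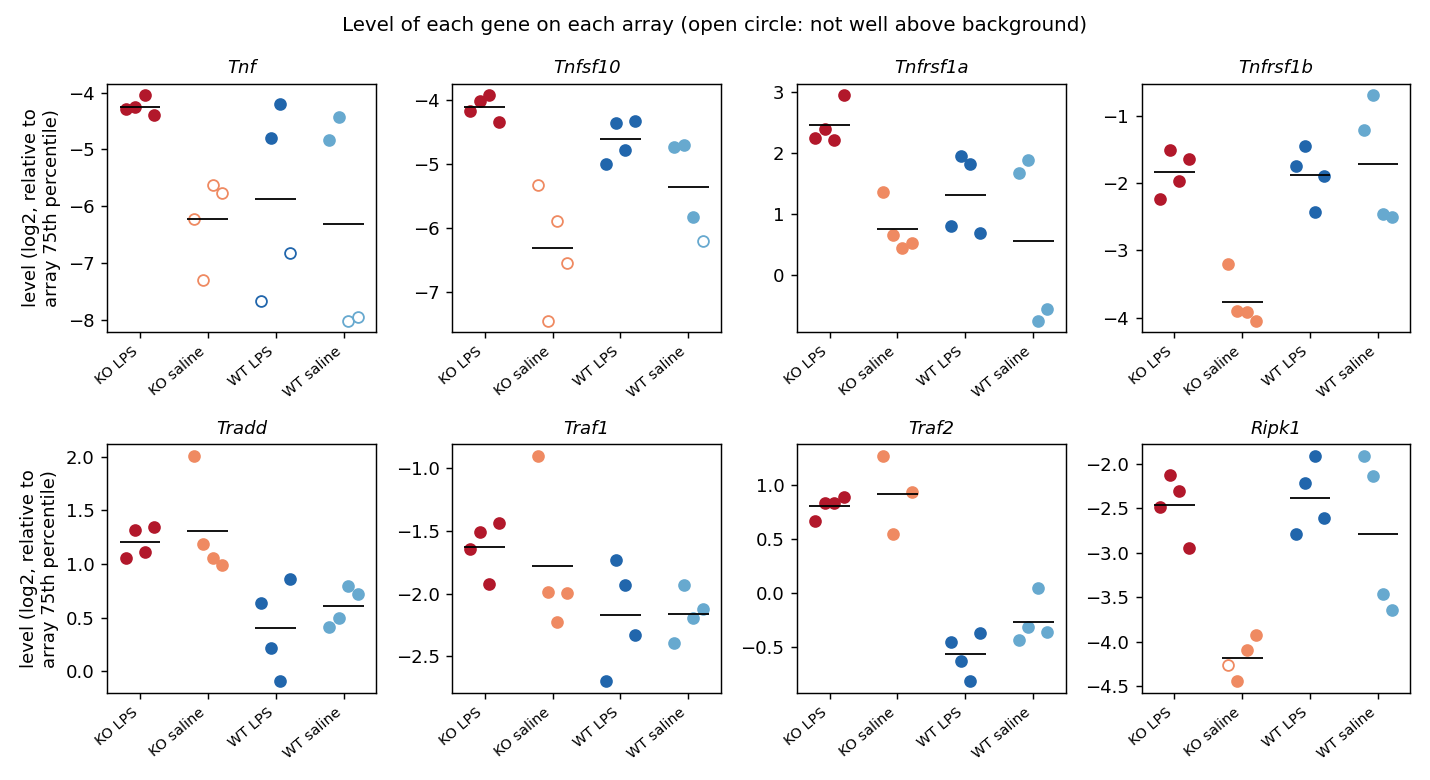
Level of each of the 8 genes on each array (y axis, log2 relative to the array's 75th percentile) by group (x axis); each gene has its own y scale, points are arrays, bars are group means and open circles are spots not well above background. Tnf in KO LPS sits between -4.40 and -4.04, above all KO saline arrays, while both WT groups split into high and low arrays.

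LPS against saline in wild-type mice asked the same with the receptor present. None of the 8 genes was called by limma, and none reached an unadjusted p under 0.05, where 0.0103% of all genes were called. The median difference of the 8 genes was 0.20 and that of all genes -0.04. Without WT saline replicates 1 and 2, Tnfrsf1a and Ripk1 rose, by 1.97 (adjusted p = 0.00948) and 1.17 (adjusted p = 0.0340), so 2 of 8 genes were called where 3.14% of all genes were. That fit keeps 2 WT saline arrays, both on slide 2, and all WT LPS arrays. The WT saline arrays left out were the higher ones in Tnfrsf1a and Ripk1, so leaving them out raised both differences. These calls are therefore a description and no support for a WT response.

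Tnf read -7.68, -4.80, -4.19 and -6.83 in WT LPS and -4.84, -4.42, -8.02 and -7.95 in WT saline. Both groups held 2 high arrays well above background (WT LPS replicates 2 and 3, WT saline replicates 1 and 2) and 2 low ones. The difference was 0.43 ± 0.83 over all arrays (adjusted p = 0.989) and 2.11 without WT saline replicates 1 and 2 (adjusted p = 0.170).

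Tnfrsf1a split in the same arrays. It read 0.81, 1.95, 1.83 and 0.70 in WT LPS and 1.68, 1.89, -0.74 and -0.55 in WT saline. Over all arrays the difference was 0.75 ± 0.52 (adjusted p = 0.869). Ripk1 (A_52_P174775) read -2.79, -2.22, -1.91 and -2.61 in WT LPS and -1.91, -2.13, -3.47 and -3.64 in WT saline, a difference of 0.40 ± 0.35 (adjusted p = 0.918).

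Tnfsf10 and Tnfrsf1b did not split in WT LPS. Tnfsf10 read -5.00, -4.36, -4.77 and -4.32 in WT LPS and -4.73, -4.70, -5.83 and -6.20 in WT saline, 0.75 ± 0.41 higher (adjusted p = 0.787) and 1.40 higher without the 2 WT saline arrays (adjusted p = 0.111). Tnfrsf1b (A_52_P228621) read -1.75, -1.45, -2.42 and -1.90 in WT LPS and -1.21, -0.69, -2.46 and -2.50 in WT saline, so its 2 highest arrays of the genotype were labelled saline. The difference was -0.16 ± 0.37 (adjusted p = 0.994), and 0.61 without those arrays (adjusted p = 0.347).

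Traf1, Traf2 and Tradd differed by -0.01 ± 0.27, -0.30 ± 0.18 and -0.20 ± 0.24 (adjusted p = 0.9999, 0.825 and 0.959). Without WT saline replicates 1 and 2 they differed by -0.01, -0.41 and -0.35 (adjusted p = 0.991, 0.410 and 0.637). Within slide 1, which holds WT saline replicates 1 and 2, Tnf differed by -1.31 and Tnfrsf1a by -0.47, and within slide 2 by 2.17 and 1.97. Within slide 2 Tnfsf10 alone was called (1.67, adjusted p = 0.0421).

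**Figure D2:**
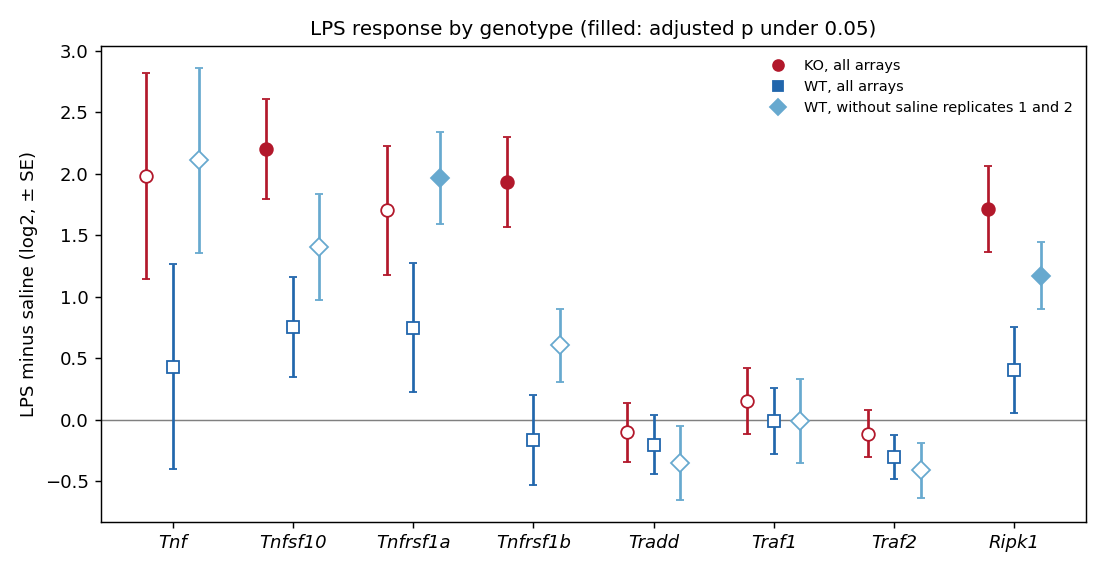
LPS minus saline difference (y axis, log2, bars are ± 1 SE of the model) of the 8 genes (x axis) in KO on all arrays, in WT on all arrays and in WT without saline replicates 1 and 2; filled symbols passed an adjusted p of 0.05. Tnfsf10, Tnfrsf1b and Ripk1 are filled in KO, no gene in WT over all arrays, and Tnfrsf1a and Ripk1 in WT without those arrays.

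The difference between the 2 responses, KO minus WT, was tested directly. None of the 8 genes was called by limma, where 0.036% of all genes were called. An unadjusted p under 0.05 was reached by 3 of the 8, and by 1343 of all 19463 genes. Of the 8, Tnfrsf1b had the largest difference of responses, 2.09 ± 0.52 (limma, adjusted p = 0.264), followed by Tnf at 1.55 ± 1.18 (adjusted p = 0.896), Tnfsf10 at 1.45 ± 0.57 (adjusted p = 0.622) and Ripk1 at 1.31 ± 0.49 (adjusted p = 0.599). Tnfrsf1b, Tnfsf10 and Ripk1 were the 3 under 0.05 before adjustment. The Tnfrsf1b value is that of probe A_52_P228621, and on A_51_P278282 the difference of responses was -0.01 ± 0.27 (adjusted p = 0.997). Without WT saline replicates 1 and 2, Tnf and Tnfrsf1a turned to -0.13 and -0.26, Tnfrsf1b stood at 1.33, Tnfsf10 at 0.80, Ripk1 at 0.54, Traf2 at 0.30, Tradd at 0.25 and Traf1 at 0.16, and none was called. With normexp correction Tnf, Tnfsf10 and Ripk1 turned to -0.83, -0.84 and -0.55, Tnfrsf1b stood at 0.14 and Tnfrsf1a at 1.07, and none was called. A larger response in KO was therefore not shown for any of them.

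Genotype without challenge, KO saline against WT saline, was a comparison in which 50.9% of all genes were called, 28.6% higher and 22.3% lower in KO. Of the 8 genes 4 were called, 2 higher and 2 lower, a share near that background. Traf2 and Tradd were higher in KO, by 1.18 ± 0.19 and 0.70 ± 0.24 (limma, adjusted p = 0.000221 and 0.0228). Tnfrsf1b and Ripk1 were lower in KO, by -2.05 ± 0.37 and -1.39 ± 0.35 (adjusted p = 0.000337 and 0.00397).

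Traf2, the adaptor shared by both receptors, read 1.27, 0.55 and 0.94 on the 3 usable KO saline arrays and -0.43, -0.32, 0.04 and -0.36 in WT saline. Tradd, which bridges TNFR1 to RIPK1, read 2.01, 1.18, 1.06 and 0.99 in KO saline and 0.42, 0.50, 0.80 and 0.72 in WT saline. Neither gene overlapped between genotypes. The share of all genes without overlap was not computed for this comparison, where 50.9% of all genes were called. Tradd lost its call when KO saline replicate 1 (0.47, adjusted p = 0.0629), WT saline replicate 1 (0.64, adjusted p = 0.0607) or WT saline replicate 2 (0.67, adjusted p = 0.0537) was left out.

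For Tnfrsf1b and Ripk1 the direction of the genotype difference depended on the probe. Probe A_52_P228621 of Tnfrsf1b had all KO saline arrays below all WT saline arrays (levels above), whereas A_51_P278282 was higher in KO saline, with -3.08, -3.68, -3.23 and -3.33 against -4.30, -4.22, -3.63 and -4.05 in WT saline, by 0.72 ± 0.19 (adjusted p over all kept probes = 0.00611). Ripk1 was lower in KO saline on A_52_P174775 and higher on A_51_P430952. Probe A_51_P430952 read -4.11, -4.10, -4.09 and -3.88 in KO saline and -4.20, -4.09, -5.88 and -5.85 in WT saline, a difference of 0.96 ± 0.39 (adjusted p = 0.0496) that came from WT saline replicates 3 and 4. Probe A_52_P452740 was well above background on no array of either saline group. No direction can therefore be given for either gene as a whole.

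Tnf and Tnfrsf1a differed by 0.08 ± 0.83 and 0.18 ± 0.52 between saline groups (adjusted p = 0.946 and 0.792). Tnfsf10 differed by -0.94 ± 0.41 (adjusted p = 0.0631), and was called lower without KO saline replicate 1 (-1.27, adjusted p = 0.0148) or WT saline replicate 4 (-1.22, adjusted p = 0.0237). No KO saline array was well above background for Tnfsf10. On the bound used above, WT saline was not higher than KO saline (log2 bound -0.44), so a lower level in KO saline was not shown. With normexp the direction turned (below). Traf1 differed by 0.38 ± 0.27 (adjusted p = 0.248). Without WT saline replicates 1 and 2, Tnfrsf1a was called higher in KO saline (1.40, adjusted p = 0.0115), Ripk1 (-0.63) and Tradd (0.55) were no longer called, and Tnfrsf1b (-1.29) and Traf2 (1.08) still were, so 3 of 8 genes were called where 35.8% of all genes were. In that fit Tnf differed by 1.76, Tnfsf10 by -0.29 and Traf1 by 0.38 (adjusted p = 0.0843, 0.622 and 0.401).

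Genotype after LPS, KO LPS against WT LPS, had 47.2% of all genes called, 25.9% higher and 21.2% lower. Traf2 and Tradd were called, both higher in KO, by 1.37 ± 0.18 and 0.80 ± 0.24 (adjusted p = 3.91e-05 and 0.0120), which is 2 of 8 genes. Traf2 read 0.67, 0.84, 0.83 and 0.89 in KO LPS and -0.46, -0.63, -0.82 and -0.37 in WT LPS. Tradd read 1.06, 1.32, 1.11 and 1.34 in KO LPS and 0.64, 0.21, -0.09 and 0.86 in WT LPS. The groups did not overlap in either gene, but the share of all genes without overlap was not computed for this comparison either. Because each gene has 1 probe and each genotype its own slides, the difference cannot be told apart from one between slides.

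Tnfrsf1a was 1.13 ± 0.52 higher in KO LPS (adjusted p = 0.0866). Its groups did not overlap, again without a share of all genes to set beside it. Tnf was 1.63 ± 0.83 higher (adjusted p = 0.121), with WT LPS replicate 3 inside the KO LPS range. Tnfrsf1a was called in the fit without WT saline replicates 1 and 2 (adjusted p = 0.00782), where the difference is the same by construction and the SE was 0.31. In that fit 49.3% of all genes were called. Tnfrsf1b (0.04 ± 0.37), Ripk1 (-0.08 ± 0.35), Tnfsf10 (0.50 ± 0.41) and Traf1 (0.54 ± 0.27) were not called. Traf1 was called only when KO saline replicate 1 was left out of the fit (adjusted p = 0.0283). Again the second probes went their own way: A_51_P278282 of Tnfrsf1b was 0.70 ± 0.19 higher in KO LPS (adjusted p = 0.00748), and A_51_P430952 of Ripk1 1.05 ± 0.39 higher (adjusted p = 0.0370).

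The probes also differ in base composition. G and C make up 33 of the 60 bases of the Traf2 probe, and 21, 23, 25, 26 and 31 bases of the probes of Tnfrsf1a, Tnfsf10, Tradd, Traf1 and Tnf. After a correction for G and C content within each array, Traf2 was 0.65 higher in KO saline and 1.02 higher in KO LPS, Tradd 0.76 and 0.88, and all 4 stayed called. Tnfrsf1b and Ripk1 stood at -1.89 and -1.19 in KO saline and stayed called, and Tnfrsf1a at 1.34 in KO LPS was called (adjusted p = 0.0484). The part of composition in the disagreement between probes was not tested.

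**Figure D3:**
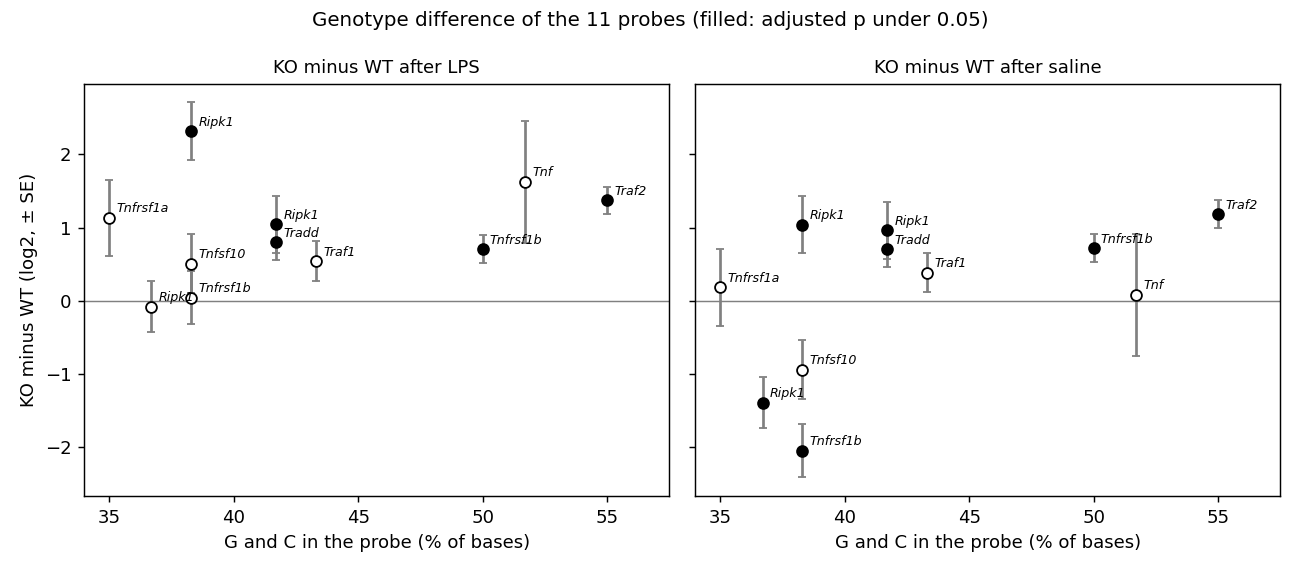
KO minus WT difference (y axis, log2, bars are ± 1 SE) of each of the 11 probes against the G and C content of the probe (x axis, percent of bases), after LPS (left) and after saline (right); filled points passed an adjusted p of 0.05. The probes of Ripk1 and of Tnfrsf1b fall on both sides of 0 after saline, with the lowest values at 36.7% and 38.3%. Ripk1 A_52_P452740 passed the filter on dim spots through KO LPS alone, so its points are a description.

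Markers of cell types and neighbouring regions were read beside these genes, against the shares of all genes called between genotypes (25.9% higher and 21.2% lower after LPS, 28.6% higher and 22.3% lower after saline). The mean level of 8 oligodendrocyte markers was 1.58 to 1.76 in KO LPS and 1.73 to 2.20 in KO saline, against 1.78 to 3.45 in WT LPS and 2.51 to 3.63 in WT saline, and 7 of 8 were called lower in KO after LPS (1 higher) and 6 of 8 after saline. The mean of 8 neuron markers was 4.60 to 4.75 in KO LPS and 4.69 to 4.78 in KO saline, against 3.54 to 4.07 in WT LPS and 3.32 to 4.26 in WT saline, with 5 called higher after LPS and 4 after saline. The mean of 8 astrocyte markers was 3.09 to 3.26 in KO LPS and 3.08 to 3.21 in KO saline, against 2.52 to 3.18 in WT LPS and, in WT saline, 2.75 or more but below every KO array, with 4 called higher and 1 lower after LPS and 4 higher and 2 lower after saline. Of 8 lymphocyte markers on the array 4 passed the filter on dim spots; all 4 were well above background on every KO saline array, and 1 on every array of each WT group, so that KO saline, where they are high, brought most of them in. These 4 were called higher in both comparisons, at levels of -4.41 to -3.96 in KO LPS and -4.20 to -3.70 in KO saline, against -6.42 to -5.32 in WT LPS and -6.23 to -5.01 in WT saline. Of the choroid plexus markers 4 of 6 were called lower after LPS and 2 of 6 after saline, and of the striatal markers 2 of 7 and 4 of 7; the 2 of 6 and 2 of 7 are near the share of all genes. Endothelial markers had 2 of 8 lower after LPS, and 1 higher and 2 lower after saline. Hippocampal markers had 1 of 7 higher and 2 lower after LPS, and 1 higher and 3 lower after saline. The mean of 6 perivascular macrophage markers was -3.07 to -2.61 in KO LPS and -1.95 to -1.63 in KO saline, against -3.45 to -2.95 in WT LPS and -3.35 to -2.72 in WT saline. Of these 6 markers, 3 were called lower in KO LPS than in KO saline and none higher, and between genotypes 2 were higher and 2 lower in KO after LPS and 3 higher and 1 lower after saline. Microglial markers averaged -0.99 to -0.63 in KO LPS, -0.26 to 0.23 in KO saline, -1.13 to -0.76 in WT LPS and -0.99 to 0.06 in WT saline, and between genotypes 3 of 10 were higher and 1 lower in KO after LPS and 3 higher after saline. Neutrophil and monocyte markers averaged -0.98 to 0.28 in KO LPS, -2.25 to -1.28 in KO saline, -1.51 to -0.88 in WT LPS and -3.18 to -0.73 in WT saline, with 1 of 6 called higher in KO LPS than in KO saline. In bulk tissue, fewer cells of a type and less RNA per cell cannot be told apart, and the part of these markers in the results for the 8 genes was not tested.

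The other genes of the pathway were read from 5 lists, first for LPS against saline in KO. In that comparison 3.64% of all genes were called, 2.5% were called higher, and the median of all genes was -0.09. List counts of 3 genes or fewer are too few to set against that share. Of 27 measured TNF-inducible genes 14 rose and none fell, with a median of 1.64. Cxcl10 and Ccl2, chemokine genes for lymphocytes and monocytes, rose by 9.87 ± 1.49 and 8.75 ± 1.44 (adjusted p = 0.00225 and 0.00318). Cxcl10 was well above background on only 1 KO saline array, so the lower side of its difference is mostly below background. Cxcl1, a neutrophil chemokine gene not above background in KO saline, was at least 39.9-fold higher (adjusted p = 0.0156). Of 15 genes of TNF release and mRNA control 3 rose: Zfp36 (2.76 ± 0.46), whose protein destabilises Tnf mRNA, Litaf (1.98 ± 0.20), a gene first described as an LPS-induced TNF factor, and Myd88 (1.77 ± 0.38), the adaptor of Toll-like receptors (adjusted p = 0.00336, 0.000189 and 0.0147). Of 29 genes of the TNFR1 complexes 3 rose. Mlkl and Ripk3, the executioner and the kinase of necroptosis, were not above background in KO saline and were at least 12.5-fold and 2.76-fold higher in KO LPS (adjusted p = 0.00614 and 0.00331), and Birc3, a ubiquitin ligase of the complex, rose by 2.55 ± 0.46 (adjusted p = 0.00561).

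Of 17 other receptors of the family 3 rose and 1 fell, and of 6 other ligands 1 rose. Cd40 rose by 2.23 ± 0.48 and Fas, the death receptor, by 1.79 ± 0.39 (adjusted p = 0.0136 and 0.0151). Cd40 too was well above background on only 1 KO saline array. Tnfrsf17, the B cell maturation receptor, was not above background in KO LPS and was at least 3.37-fold lower there than in KO saline (adjusted p = 0.0249). The ligand gene Tnfsf8 was at least 2.15-fold higher (adjusted p = 0.0216). Of the KO groups, only the one where each gene is high would pass it through the filter on dim spots, KO saline for Tnfrsf17 and KO LPS for Tnfsf8. Their values are therefore a description. With normexp correction 10 of the 27 TNF-inducible genes were called higher, 2 of 15 of release and mRNA control, and 1 receptor higher and 1 lower, but none of the complexes or ligands, where 2.18% of all genes were called.

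In WT, LPS against saline gave no called gene in any of the 5 lists by limma. An unadjusted p under 0.05 was reached by 3 TNF-inducible genes, 2 of release and mRNA control, 2 of the complexes, 3 receptors and 1 ligand. The same was reached by 1285 of all 19463 genes. Without WT saline replicates 1 and 2, 9 of 27 TNF-inducible genes, 2 of 15 of release and mRNA control, 2 of 29 of the complexes, 2 of 17 receptors and 1 of 6 ligands were called higher, and 1 receptor lower, where 3.14% of all genes were called in either direction. The 2 of 29 complex genes are near that share, and counts of 1 or 2 genes in the short lists are too few to set against it. Those WT saline arrays were left out for their high levels in inflammatory genes. The 9 called TNF-inducible genes are therefore no support for a WT response. The difference between responses was called for Litaf alone of the 5 lists, 1.95 ± 0.28 larger in KO (adjusted p = 0.0301), and for no gene of the lists without those 2 arrays. The mean level of the 27 TNF-inducible genes was 0.62 to 0.72 in KO LPS and -1.72 to -1.62 in KO saline, with no overlap. It was -0.61, 0.60, 0.65 and -0.29 in WT LPS and 0.35, 0.48, -1.69 and -1.69 in WT saline, so that WT saline replicates 1 and 2 lay above WT LPS replicates 1 and 4.

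Between genotypes the lists are read against 47.2% of all genes called after LPS and 50.9% after saline. The called share after LPS and after saline was 55.2% and 48.3% of the 29 complex genes, 29.6% and 48.1% of the 27 TNF-inducible genes, 47.1% and 35.3% of the 17 other receptors and 33.3% and 66.7% of the 6 other ligands, and 3 and 9 of the 15 release and mRNA control genes were called. The shares of the complexes, of the receptors after LPS and of the TNF-inducible genes after saline are near those of all genes, and the short lists rest on few genes. Among the complexes 9 were higher and 7 lower in KO LPS, and 5 higher and 9 lower in KO saline. Without WT saline replicates 1 and 2 the KO saline count turned to 7 higher and 4 lower, where 35.8% of all genes were called, and with normexp to 10 higher and 5 lower, where 61.2% were. Xiap, a caspase inhibitor, was lower in KO by -2.63 ± 0.35 after LPS and by -2.93 ± 0.35 after saline (adjusted p = 3.11e-05 and 1.24e-05), and Sharpin, part of the linear ubiquitin ligase, was higher by 1.69 ± 0.20 and 1.55 ± 0.20 (adjusted p = 1.43e-05 and 2.89e-05). Of the TNF-inducible genes 12 were lower and 1 higher in KO saline, which became 2 lower and 4 higher without WT saline replicates 1 and 2 and 3 lower and 5 higher with normexp. In KO LPS 6 were higher and 2 lower, against 12 and 3 without those arrays. Nfkbie and Nfkb2, NF-kB regulators, were higher by 2.14 ± 0.28 and 1.86 ± 0.46, and Vcam1, an endothelial adhesion molecule, was lower by -1.85 ± 0.24 (adjusted p = 2.56e-05, 0.00393 and 2.64e-05). Of the 15 release and mRNA control genes 2 were higher and 1 lower in KO LPS, and 1 higher and 8 lower in KO saline, the KO saline count being 1 higher and 4 lower without WT saline replicates 1 and 2 and 3 higher and 4 lower with normexp. Of the 17 other receptors 4 were higher and 4 lower in KO LPS. In KO saline 3 receptors were higher and 3 lower, against 1 and 3 without those arrays and 10 and 1 with normexp. Of the 6 other ligands 2 were higher in KO LPS, and 3 higher and 1 lower in KO saline, against 3 and 0 without those arrays and 6 and 0 with normexp. The 2 higher in KO LPS, Cd70 and Lta, were also called higher in KO saline. Both passed the filter on dim spots through KO arrays alone, where they are high. The ligand counts and shares that include them are therefore a description and no support for a genotype difference.

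The genes whose pattern over the 16 arrays was most like that of Tnf, by Pearson r, were Tnfaip2 (0.94), Slamf8 (0.92), Mefv (0.91), Tgm1 (0.91) and Il1b (0.91). They share arrays, scaling and the split of the WT arrays with Tnf. Il1b, the interleukin 1 beta gene, read -1.38, -1.33, -1.28 and -1.38 in KO LPS and -3.83, -4.48, -4.71 and -4.09 in KO saline. It read -4.33, -2.19, -1.67 and -3.87 in WT LPS and -2.40, -2.37, -4.74 and -5.03 in WT saline, high on the same 4 WT arrays as Tnf. Of the 7 other genes described here, Tnfrsf1a was closest to Tnf over the 16 arrays (0.88), then Tnfsf10 (0.66) and Ripk1 (0.62), with Traf1 at 0.42, Tnfrsf1b at 0.38, Traf2 at 0.16 and Tradd at -0.10. The Traf2 spot of KO saline replicate 3 was missing, so its r rests on 15 arrays here and leaves out that array in KO below. Within the 8 arrays of a genotype the order was different. In KO, Ripk1 stood at 0.94, Tnfsf10 at 0.93, Tnfrsf1b at 0.85, Tnfrsf1a at 0.81, Traf1 at 0.10, Traf2 at -0.01 and Tradd at -0.22. In WT, Ripk1 stood at 0.93, Tnfrsf1a at 0.92, Tnfsf10 at 0.68, Tnfrsf1b and Traf1 at 0.57, Traf2 at -0.63 and Tradd at -0.81.

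**Figure D4:**
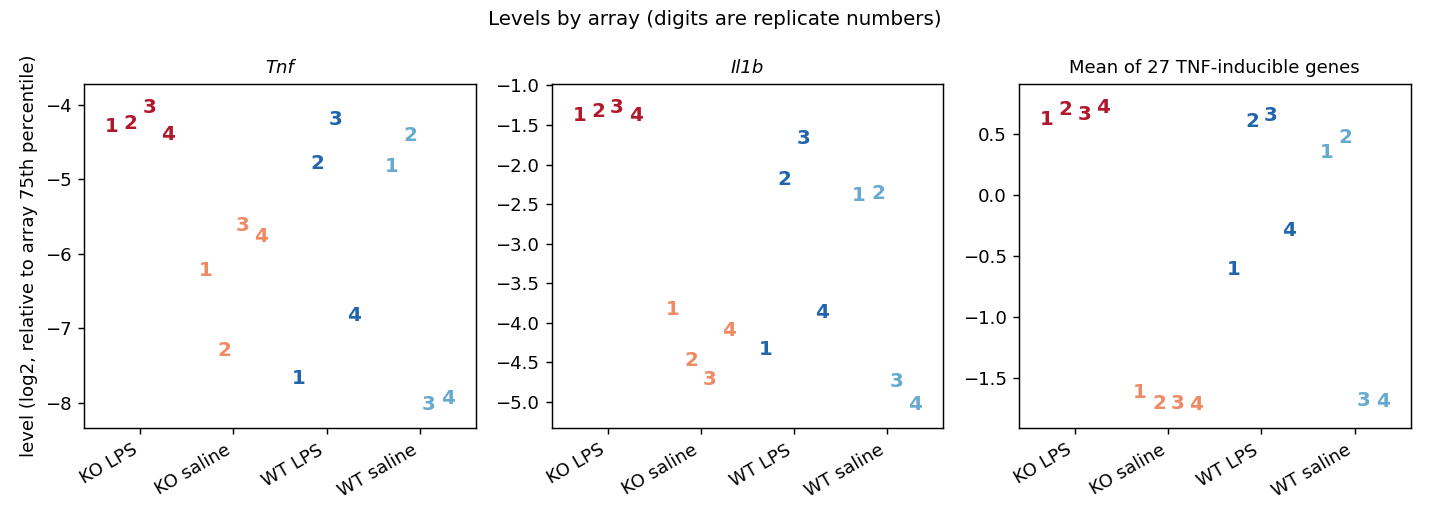
Level on each array (y axis, log2 relative to the array's 75th percentile; each panel has its own scale) of Tnf, Il1b and the mean of 27 TNF-inducible genes, by group (x axis); digits are replicate numbers. In all 3 panels WT LPS replicates 2 and 3 and WT saline replicates 1 and 2 lie above the other WT arrays.

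Promoters were read because several of these genes moved together in KO. RefSeq entries on build GRCm38.p6 were matched for 7 of the 8 genes by symbol (8 entries, since Ripk1 has a pair of starts), and the 250 bases before each start were searched on both strands for an NF-kB-like motif (GGG, 5 bases of any kind, CC), an interferon response core (GAAA, 2 bases of any kind, GAAA) and the TATA box TATAAA. These stand in 45.8%, 2.98% and 12.4% of 32851 promoters of the same length. The 2 promoters with more than 1 kind of match are shown, with the matches in capitals.
Tnf, chr17:35202008-35202257, minus strand: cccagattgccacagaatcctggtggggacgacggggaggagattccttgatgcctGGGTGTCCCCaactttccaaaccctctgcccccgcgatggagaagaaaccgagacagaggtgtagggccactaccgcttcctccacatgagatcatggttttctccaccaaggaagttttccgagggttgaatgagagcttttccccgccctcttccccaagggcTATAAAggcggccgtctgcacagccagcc
Tnfrsf1b, chr4:145246871-145247120, minus strand: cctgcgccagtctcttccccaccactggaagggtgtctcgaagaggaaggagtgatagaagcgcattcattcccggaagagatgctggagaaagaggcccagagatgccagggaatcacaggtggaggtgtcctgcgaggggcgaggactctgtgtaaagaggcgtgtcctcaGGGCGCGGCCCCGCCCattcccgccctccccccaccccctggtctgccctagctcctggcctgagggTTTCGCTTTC
Tnf has an NF-kB-like match that reads on both strands, starting 194 bases before the start, and a TATAAA at 29. Tnfrsf1b has 3 overlapping NF-kB-like matches, starting 77, 76 and 71 bases before the start, and an interferon response core on the opposite strand at 10. Tnfrsf1a, Traf2 and 1 of the Ripk1 starts have 1 NF-kB-like match each, and Traf1 and Tnfsf10 no match to any of the 3 in this window. These matches are a description of the letters.

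In the authors' deposited table of fold changes, 5 of the 11 probes are listed, each in the same direction as in the model above. The authors' deposited table gives Tnfrsf1b (A_52_P228621) as 3.79-fold up in KO LPS against KO saline and 4.12-fold down in KO saline against WT saline. It gives Tnfrsf1a as 3.25-fold up in KO LPS against KO saline and 2.19-fold up in KO LPS against WT LPS, and Traf2 as 2.59-fold and 2.34-fold up in KO after LPS and after saline. For Ripk1 the authors' deposited table too has both directions in KO saline against WT saline, 2.63-fold down on A_52_P174775 and 1.91-fold up on A_51_P430952. It lists neither Tnf nor Tnfsf10.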

How the data were processed

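Per the file headers and the submitters' processing notes, the deposited intensity values came from Agilent Feature Extraction 9.5 and comprise the processed signal (background-subtracted and detrended within an array), the spot mean, the local background and quality flags. The authors' deposited tables hold linear fold changes (a ratio of condition means) and log2 values averaged over 4 arrays; their normalization method is not given in the sources used here. The tables' 32 columns of detection calls, 1 or more for each array, were left aside.

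The processed intensity was scaled to the 75th percentile of each array and taken as log2. Outlier spots were set missing. A probe was kept if it was well above background on at least 3 of 4 arrays of 1 group (28347 probes), and a gene was read from its brightest kept probe. Differences were fitted with limma 3.58.1 (lmFit, eBayes) in R 4.3.3 on 4 group means, with Benjamini-Hochberg adjustment over 19463 genes. The fit was tested on simulated data. An exact permutation test of 4 against 4 arrays cannot go below 0.0286. Array precision is limited by the 4 arrays per group. Folds against a group below background are bounds, from the dimmest probe well above background on each array. They are for group means of the processed intensity and leave out the spread between arrays. The background flag is not a fixed level, so they are no limit under another background correction. No 2 arrays were copies: the smallest median absolute difference was 0.12 (log2) over the 20703 probes that all arrays detected. Same-numbered arrays of a genotype did not deviate together (r between -0.38 and 0.34, over 0.1 in 2 of 8 pairs), and the notes give the numbers no meaning.

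Of the probes, 24844 were named through their RefSeq accession and 16330 kept the name in the file. All 8 genes are named with all their probes; from each pathway list at most 3 called genes per comparison, those with the largest change, may be named, and the 5 genes with the highest r to Tnf. The genes, lists and markers were chosen with earlier results of these data known. Alternatives were other background corrections, scalings, filters and probe rules, slide or replicate number as a block, fits within a slide or on the groups compared, leaving out arrays, and a G and C correction.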

Additional observations from a re-analysis of the deposited data

Results flagged for a closer look

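In 3 groups of 4 arrays, 1 array lay far from the other 3 on a probe of these genes (gap to the nearest array over the range of the group). Ripk1 A_51_P430952 was lowest on KO LPS replicate 1 (level -3.75, ratio 0.868) and highest on KO saline replicate 4 (level -3.88, ratio 0.902). Tnfrsf1b A_52_P228621 was highest on KO saline replicate 1 (level -3.21, ratio 0.836). Chance marks about 1 in 20 groups in this way.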

How the results depend on the processing

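Over the alternatives, 1089 values of the 8 genes were computed, of which 1000 kept direction and side of the threshold, 11 lost the call, 20 gained it, 6 reversed and 52 changed sign without being called either way. The count called for KO LPS against KO saline was 3, and became 0 with normexp and 1 with only probes above background on all arrays (5 genes tested). It became 5 within slide 3, 0 within slide 4, and 5 both on the groups compared alone and by unadjusted exact permutation tests. Over all 19463 genes 708 were called, and 424 with normexp, 882 within slide 3, 178 within slide 4 and 819 on the groups compared alone. With only probes above background on all arrays, 498 of 15034 genes were called. The 5 of the permutation tests include Tnf, and any call for Tnf against KO LPS is no support for a difference. For WT LPS against WT saline it was 0, and became 1 within slide 2 and 2 without WT saline replicates 1 and 2, where 245 and 611 of all 19463 genes were called. For KO LPS against WT LPS it was 2, and became 4 both on the groups compared alone and without those arrays. There 10738 and 9601 of all 19463 genes were called, so 4 of 8 genes is near the share of all genes. Leaving out 1 array at a time gave 3 to 3, 0 to 0 and 2 to 3 in these comparisons, 3 to 5 for KO saline against WT saline and 0 to 0 for the difference of responses. With normexp, Tnfsf10 and Ripk1 reversed to -0.55 and -0.14 for KO LPS against KO saline and to 1.24 and 0.70 for KO saline against WT saline. With the mean of its probes, Ripk1 reversed to 0.20 for KO saline against WT saline and to 1.09 for KO LPS against WT LPS. That mean takes in A_52_P452740, which passed the filter on dim spots through KO LPS alone. The same probe was well above background on no array of either saline group. Both values of the mean are therefore a description and no support for a genotype difference. With the replicate number as a block, 3, 0, 4, 2 and 0 genes were called, so the block changed no count. Normexp moved the median of all genes to 0.44 for KO saline against WT saline, against 0.07 with the processed signal. The median negative-control spot exceeded its local background by 21.8 to 37.3 units on an array, against 2.96 to 5.08 units in the processed signal. The causes were not tested.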
